A study of Mus musculus with 6 samples.

Results

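The 9 loci described here carry genes by which glial cells and gliomas are commonly recognised: *Sox2*, *Olig2* and *Sox9*, which encode transcription factors, *Nes*, *Vim* and *Gfap*, which encode intermediate filaments, and *Pdgfra*, *Egfr* and *Cd44*, which encode cell surface receptors. Their members were all accessible regions in the gene body or within 50 kb of it (GENCODE M21 genes on mm10), whatever their height or their response. A region counted as a consensus peak when both replicates of at least 1 condition shared a stretch of over 200 bp. This gave 50 consensus peaks of 41308 in the whole series. Counting every peak of any library, the loci held 63 merged regions of 52358, and 13 of these were in no consensus peak. Of those 13, 7 were found in 1 library each and 1 in a normoxic library.

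ATACseq, in which the Tn5 transposase cuts DNA that is not covered by nucleosomes, was performed on GL261, a mouse glioma line that here stably expressed pEGFP-N1. Cells grew in DMEM with 10% serum and were kept at 21% O2 (normoxia), or for 16 h at 1% O2 (moderate hypoxia) or <0.1% O2 (severe hypoxia), and the hypoxic cells were fixed with formaldehyde before they left the chamber. There were 2 libraries per condition and 6 in all. They come from 1 cell line in culture, the labels do not say whether the replicates were separate cultures, and the spread between them may therefore be technical.

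Neural stem cells rely on SOX factors and on nestin filaments, precursors of oligodendrocytes carry OLIG2 and the PDGF receptor alpha, and astrocytes fill with GFAP and vimentin. Malignant glioma cells mix these programmes, and a state rich in CD44 and vimentin is called mesenchymal. An accessible promoter permits transcription but does not measure it, and no RNA was used here.

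For each peak the lists give a fold, which is the fragment pileup at the summit over the local background (each plus 1). The whole-number pileup was recovered from the fold and the p-value. The fold rank is the percentile of a peak's fold among the 28432 consensus peaks found in all 6 libraries, so that 100 is the highest, and the pileup rank is the same for the summit pileup. Calls of lower or higher rank needed both libraries of a hypoxic condition to lie outside the normoxic pair on the same side, with a mean difference in fold rank of at least 10 percentile points. A gained peak was in both libraries of a hypoxic condition and in neither normoxic list, and a lost peak was the reverse. Genome coverage was 2.16 and 2.36 at 21% O2 and 2.93 to 3.35 in hypoxia, and the lists held 33006 and 36188 peaks against 39348 to 43554. Pileups of consensus peaks at the loci ran from 16 (exact Poisson 95% interval 9.15 to 26.0) to 448 (407 to 491), and these intervals cover counting error only. In bulk libraries, fewer open cells and less opening per cell cannot be told apart.

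Of the 9 genes, 7 had a promoter peak (within 2000 bp of a start site of the gene) in all 6 libraries. These were *Sox2*, *Olig2*, *Nes*, *Vim*, *Gfap*, *Pdgfra* and *Cd44*. *Sox9* and *Egfr* had none in any library. Over all 21924 protein-coding genes, 11619 (53.0%) had a promoter peak in all 6 libraries. Further marker lists were chosen with earlier results of these data known. The other glial lists were open in part: 6 of 10 astrocyte genes (*Slc1a2* and *Aqp4* had no peak), 5 of 9 of neural stem cells (*Prom1*, *Sox1* and *Hes5* had none) and 9 of the 11 genes of the mesenchymal glioma programme that the annotation names. Among lists of other cell types, 1 of 5 genes of mature oligodendrocytes (*Mbp*), 2 of 6 of neurons (*Syn1* and *Tubb3*), 1 of 6 of microglia and macrophages (*Csf1r*), 0 of 5 of endothelium (*Pecam1* had a peak in 5 libraries) and 1 of 5 of unrelated tissues (*Apoa1*) were open in all 6. The defining genes *Ptprc*, *Aif1* and *Itgam* of microglia, *Cdh5* and *Kdr* of endothelium and *Rbfox3* and *Dcx* of neurons had no promoter peak in any library.

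**Figure D1:**
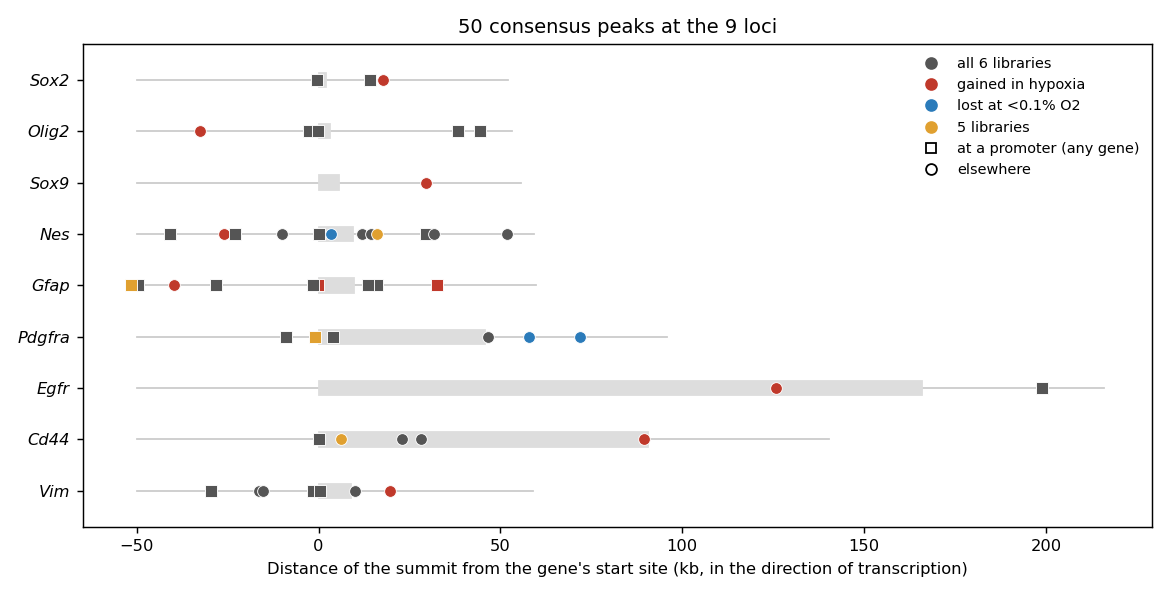
The 50 consensus peaks by the distance of their summit from the gene's start site, in kb along the direction of transcription; grey bars are gene bodies and thin lines the 50 kb flanks. Squares are peaks at a promoter of any gene and circles the rest. *Nes* has 12 peaks, *Sox9* has 1 and *Egfr* has 2, and 33 peaks (dark grey) were found in all 6 libraries.

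Promoter sequences of 8 of the 9 genes matched the RefSeq table (GRCm38.p6, which is mm10), each with 250 bases before and 50 after the start. *Sox9* did not match. They differ in CpG content. The ratio of observed to expected CpG was 0.819 at *Sox2*, 0.815 at *Olig2*, 0.702 at *Nes*, 0.591 at *Egfr*, 0.421 at *Vim*, 0.256 at *Pdgfra*, 0.246 at *Cd44* and 0.129 at *Gfap*, where the median of 32851 RefSeq promoters was 0.384. Thus *Egfr*, with no peak, lies above the median and *Cd44* and *Gfap*, with peaks in or near these windows, lie below it. The bases before the start are printed for *Sox2* and *Nes*, which are CpG rich and open, for *Cd44* and *Gfap*, which are CpG poor, and for *Egfr*, which has no peak. The *Nes* run stops before the first exon of GENCODE, and no run overlaps an annotated exon. Capitals mark motifs, searched on both strands: TGANTCA (bound by AP-1), ACGTG and GCGTG (cores of the hypoxia response element), CACGTG (an E box, which contains ACGTG) and ACAAT (a core bound by SOX factors).
*Sox2*, chr3:34649745-34649994, plus strand: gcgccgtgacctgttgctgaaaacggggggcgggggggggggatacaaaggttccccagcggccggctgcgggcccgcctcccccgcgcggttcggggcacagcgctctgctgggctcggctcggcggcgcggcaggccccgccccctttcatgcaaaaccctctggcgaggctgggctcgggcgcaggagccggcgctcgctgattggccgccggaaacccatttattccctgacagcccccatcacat
*Nes*, chr3:87970843-87971077, plus strand: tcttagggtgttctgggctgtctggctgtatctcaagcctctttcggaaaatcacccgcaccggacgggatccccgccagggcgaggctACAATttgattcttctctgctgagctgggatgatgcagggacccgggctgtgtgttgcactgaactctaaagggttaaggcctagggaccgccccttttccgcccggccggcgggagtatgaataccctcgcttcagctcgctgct
*Cd44*, chr2:102901666-102901915, minus strand: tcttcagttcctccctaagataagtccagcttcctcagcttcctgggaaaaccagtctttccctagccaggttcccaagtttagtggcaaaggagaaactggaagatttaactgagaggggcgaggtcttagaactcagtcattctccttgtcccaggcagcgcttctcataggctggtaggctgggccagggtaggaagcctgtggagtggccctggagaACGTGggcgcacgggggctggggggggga
*Gfap*, chr11:102897201-102897450, minus strand: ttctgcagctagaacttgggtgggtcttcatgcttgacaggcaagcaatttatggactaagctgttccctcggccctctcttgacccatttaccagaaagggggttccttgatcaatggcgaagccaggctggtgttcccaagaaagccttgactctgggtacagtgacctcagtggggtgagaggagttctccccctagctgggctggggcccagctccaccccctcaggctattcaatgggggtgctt
*Egfr*, chr11:16751953-16752202, plus strand: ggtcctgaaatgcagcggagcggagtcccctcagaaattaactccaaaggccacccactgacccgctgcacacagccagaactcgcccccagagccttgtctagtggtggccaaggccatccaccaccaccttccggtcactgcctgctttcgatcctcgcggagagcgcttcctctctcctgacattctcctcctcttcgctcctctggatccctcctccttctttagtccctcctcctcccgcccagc

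In the 8 full windows ACGTG was found in *Cd44* alone and GCGTG in *Olig2* alone, while 19.6% and 32.4% of all RefSeq promoters hold them. ACAAT was found in *Nes* and *Olig2* (31.0% of all), and TGANTCA (7.81% of all) and CACGTG (7.15% of all) in none of the 8. These are matches of letters in one window and say nothing of whether a factor was bound.

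A second set of sequences is shown because these regions, away from promoters, held the peaks lost in severe hypoxia, the strongest peak in the *Cd44* gene and the largest fall in pileup rank at *Vim*. Each is the 200 bp around the summit, on the plus strand of mm10, with the same motifs in capitals.
*Nes* intron 2, chr3:87974393-87974592: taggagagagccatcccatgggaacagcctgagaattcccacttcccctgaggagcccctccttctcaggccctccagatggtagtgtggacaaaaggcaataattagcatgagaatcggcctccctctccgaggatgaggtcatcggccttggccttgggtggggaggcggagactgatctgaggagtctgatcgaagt
*Pdgfra* 57.8 kb downstream of the start, chr5:75209995-75210194: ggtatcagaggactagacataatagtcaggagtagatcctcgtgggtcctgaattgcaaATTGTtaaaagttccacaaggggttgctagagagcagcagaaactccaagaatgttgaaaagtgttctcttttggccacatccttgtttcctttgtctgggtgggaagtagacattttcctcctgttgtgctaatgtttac
*Pdgfra* 71.8 kb downstream of the start, chr5:75223992-75224191: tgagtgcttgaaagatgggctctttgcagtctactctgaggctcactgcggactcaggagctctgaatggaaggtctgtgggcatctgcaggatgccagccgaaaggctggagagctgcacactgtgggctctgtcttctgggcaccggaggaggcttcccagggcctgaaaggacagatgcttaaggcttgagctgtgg
*Cd44* intron 1, chr2:102873267-102873466: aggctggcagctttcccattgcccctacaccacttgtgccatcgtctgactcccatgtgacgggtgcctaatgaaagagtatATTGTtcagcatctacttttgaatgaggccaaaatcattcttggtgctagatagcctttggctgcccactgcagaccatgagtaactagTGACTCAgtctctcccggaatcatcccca
*Vim* 9.90 kb downstream of the start, chr2:13583747-13583946: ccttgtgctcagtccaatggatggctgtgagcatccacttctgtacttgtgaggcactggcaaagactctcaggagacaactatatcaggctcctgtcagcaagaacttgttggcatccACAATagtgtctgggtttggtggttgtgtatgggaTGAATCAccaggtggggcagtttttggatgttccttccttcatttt

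The *Cd44* and *Vim* windows each hold 1 TGANTCA and 1 ACAAT, the first *Pdgfra* window holds 1 ACAAT, and the *Nes* and the second *Pdgfra* windows hold none of these letters. Over the 200 bp around the summits of the 50 peaks, TGANTCA was in 11 (22.0%, against 22.3% of all 41308), ACGTG in 6 (12% against 12.9%), GCGTG in 9 (18% against 23.2%), CACGTG in 0 (4.26% of all) and ACAAT in 15 (30% against 23.4%).

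All 33 peaks present in the 6 libraries belonged to the consensus of every condition, 66.0% of the 50, where 68.3% of all consensus peaks did. At 1% O2, 9 of the 33 were lower in fold rank and 1 was higher, where 18.5% and 16.6% of all ranked peaks were called. At <0.1% O2, 10 were lower and 3 higher, where 19.9% and 19.3% of all were called. By pileup rank 8 were lower and 2 higher at 1% O2 (17% and 16.4% of all) and 9 lower and 2 higher at <0.1% O2 (21.5% and 20.7% of all). The median fold rank changes of the 33 were -3.61 and -0.63 percentile points, against -0.64 and -0.18 over all ranked peaks. The 2 levels were compared with the same normoxic libraries, and 7 peaks were called lower at both. The split depended on the scale. When folds were ranked within each whole list, which is longer in hypoxia and raised the median of all peaks by 3.02 and 2.62 points, 5 were lower and 4 higher at 1% O2 (8.57% and 25.4% of all) and 6 lower and 6 higher at <0.1% O2 (12.7% and 25.8% of all). Single libraries also mattered, since 14 were lower at 1% O2 without 21% O2 replicate 2 and 15 without 1% O2 replicate 2, and 3 were higher at 1% O2 without 21% O2 replicate 1 or without 1% O2 replicate 1, and 2 without 1% O2 replicate 2. At <0.1% O2, 6 were higher without 21% O2 replicate 1 and 2 without 21% O2 replicate 2.

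The 8 ranked promoter peaks of the genes themselves leaned the same way. At 1% O2, 3 were lower and 0 higher, where 16.5% and 11.9% of all ranked promoter peaks were called, and at <0.1% O2, 4 were lower and 1 higher, against 26.5% and 12%. Their median changes were -9.11 and -10.3 points, beside -0.96 and -2.52 over all promoter peaks. Ranked within whole lists, 0 were lower and 1 higher at 1% O2, against 6.6% and 19.4% of all promoter peaks, and 1 was lower and 2 higher at <0.1% O2, against 17.4% and 16.8%. The smallest exact permutation p for 2 libraries and 2 is 0.33, and single peaks are given without one.

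**Figure D2:**
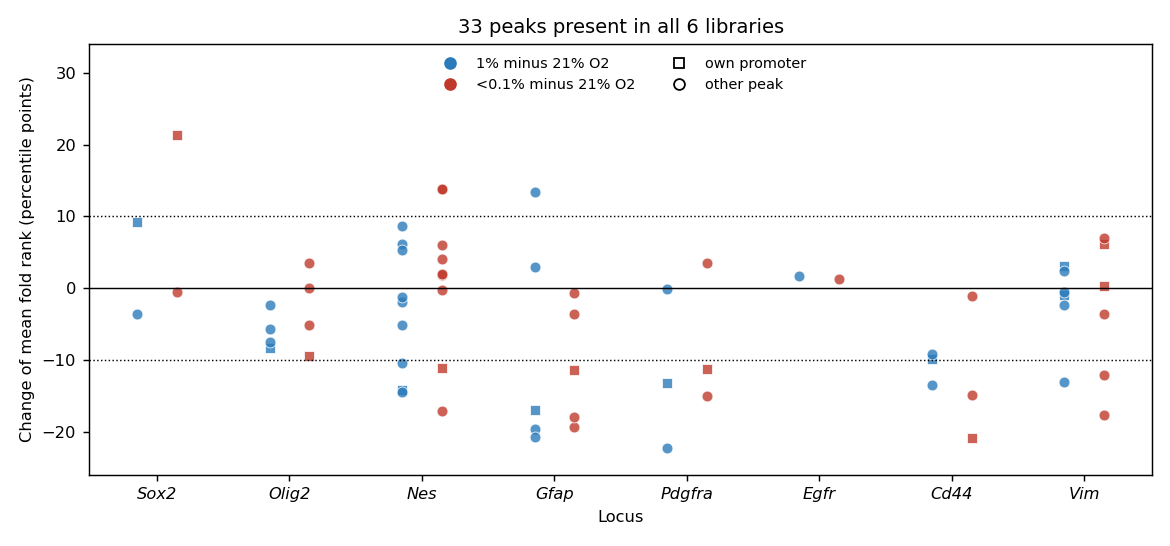
Change of the mean fold rank, in percentile points, of the 33 peaks present in all 6 libraries, by locus; blue is 1% minus 21% O2, red <0.1% minus 21% O2, squares are promoters of the gene itself and dotted lines mark 10 points either way. *Sox2* has the highest point, 21.4 at <0.1% O2, and most promoter squares of the other genes lie below 0.

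The number of peaks at the loci was 38 and 39 in normoxia, 51 and 50 in moderate hypoxia and 56 and 47 in severe hypoxia. All 4 hypoxic lists held more. The means were 38.5 ± 0.707 (SD, n = 2) and 51.0 ± 3.74 (SD, n = 4), and the exact permutation p (two-sided, 15 assignments) was 0.0667, the smallest that can be reached. With equally long lists (33006 peaks each), an alternative chosen after seeing the data, the mean difference of 12.5 became 1.75 and the exact permutation p 0.40. As a share of each list, the loci held 0.111% ± 0.0052 (SD, n = 2) of the peaks in normoxia and 0.122% ± 0.0046 (SD, n = 4) in hypoxia, higher in 4 of 4 hypoxic libraries than in both normoxic ones (exact permutation p = 0.0667, the smallest possible here). At 1% O2, 5 of the 50 consensus peaks were gained and 0 lost, where 10.4% and 0.997% of all consensus peaks were. At <0.1% O2, 7 were gained and 3 lost, where 9.95% and 1.47% were. The summit pileups of the 10 different gained peaks ran from 18 to 110, where the medians of the hypoxic libraries were 60 to 69. The gained peaks of *Sox2* and *Nes* described below lay above the median of every library that listed them. Every hypoxic library had higher coverage than both normoxic ones, which cannot be told apart from the condition. In lists of equal length 2 were gained and 2 lost at 1% O2, and 5 were gained and 4 lost at <0.1% O2. Leaving out a library eases the rule, and 8 were gained at 1% O2 without 21% O2 replicate 2, 10 and 1 were gained and lost without 1% O2 replicate 1, 9 were gained without 1% O2 replicate 2 and 17 were gained at <0.1% O2 without <0.1% O2 replicate 2.

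**Figure D3:**
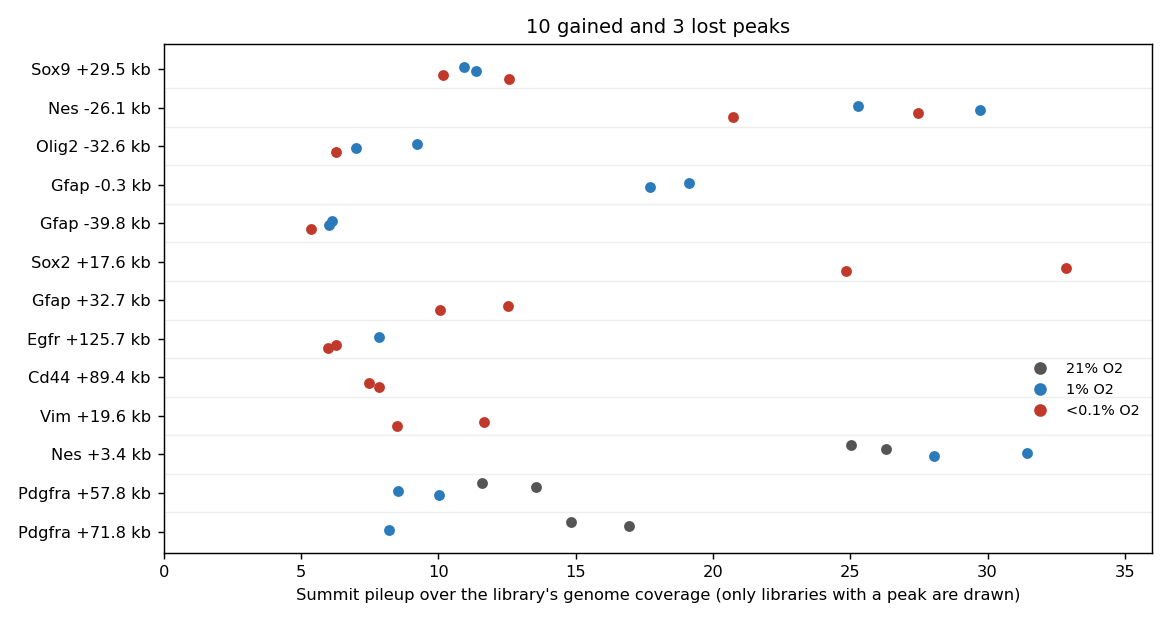
Summit pileup divided by the library's genome coverage for the 10 gained peaks (upper rows) and the 3 lost peaks (last 3 rows), each row labelled with the gene and the distance of the summit from its start site; points are libraries that listed the peak. The *Sox9* and *Nes* -26.1 kb rows have points from all 4 hypoxic libraries and none at 21% O2, and the gained peaks range from 5.38 to 32.9 times the coverage.

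Among the transcription factor genes, *Sox2* (chr3:34650405-34652461, plus strand), a factor that maintains neural stem cells, had 3 peaks. Its promoter peak (chr3:34648993-34650603, summit 474 bp upstream of the start) had summit pileups of 155 and 237 in normoxia, 245 and 242 at 1% O2 and 232 and 208 at <0.1% O2. Its fold rank was 29.2 and 31.3 in normoxia, 35.1 and 44.0 at 1% O2 and 42.9 and 60.4 at <0.1% O2. All hypoxic libraries lay above both normoxic ones, and the rise of 21.4 points at <0.1% O2 was called, being 12.6 without <0.1% O2 replicate 2 and 30.2 without replicate 1. By pileup rank the change was -1.99, the opposite sign and not called, with all 6 values between 85.3 and 90.2. The peak thus stood high in fragments throughout, and the fold, which also contains the local background, moved alone. The second *Sox2* peak, at the promoter of the overlapping noncoding gene *Sox2ot* 14.0 kb downstream, had overlapping ranks of 41.8 and 24.3 in normoxia, 22.6 and 36.2 at 1% O2 and 31.9 and 33.1 at <0.1% O2. Another peak, 17.6 kb downstream (chr3:34667950-34668240), was gained at <0.1% O2 with pileups of 110 and 79 and was in no list at 21% or 1% O2. It was also gained in lists of equal length.

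*Olig2* (chr16:91225457-91228677, plus strand), the factor of the oligodendrocyte lineage that is also found in gliomas, had 5 peaks, 3 of them at promoters of neighbours. Its own promoter peak (chr16:91224814-91225654) had pileups of 65 and 61 in normoxia, 69 and 68 at 1% O2 and 48 and 40 at <0.1% O2. Its pileup rank was 52.4 and 38.3, then 29.4 and 32.7, then 17.0 and 16.7, so that the groups did not overlap and the <0.1% O2 libraries were lowest. The pileup rank changes of -14.3 and -28.5 were both called lower, the first being -7.32 and short of a call without 21% O2 replicate 1. The fold rank was 35.0 and 17.5 in normoxia, 14.8 and 20.9 at 1% O2 and 19.0 and 14.7 at <0.1% O2, and since 21% O2 replicate 2 lay within the hypoxic values, neither change was called. Without 21% O2 replicate 1 the fold rank changes were 0.34 and -0.67, so the direction by fold rested on that library. A small peak at the promoter of the noncoding *Gm49614*, 2.69 kb upstream, also fell by pileup rank, by 17.4 points at 1% O2 and by 16.5 at <0.1% O2. The promoter of *Olig1*, a related factor of the same lineage 44.3 kb downstream, had fold ranks of 63.8 and 55.3 in normoxia, 43.8 and 63.9 at 1% O2 and 63.4 and 62.7 at <0.1% O2, which overlapped. A peak 32.6 kb upstream was gained at 1% O2 with pileups of 27 and 21, and <0.1% O2 replicate 1 had it with 21. It was in none of the lists of equal length.

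*Sox9* (chr11:112782224-112787760, plus strand), a factor of early gliogenesis, had no peak within 50 kb at 21% O2. Its single peak, 29.5 kb downstream (chr11:112811469-112811823), was present in all 4 hypoxic libraries, with pileups of 32 and 34 at 1% O2 and 34 and 40 at <0.1% O2. The exact Poisson 95% intervals of these pileups ran from 21.9 to 45.2 for the lowest and from 28.6 to 54.5 for the highest. Relative to coverage the pileups were 10.9, 11.4, 10.2 and 12.6. The peak was gained at both levels in lists of equal length too. Its 200 bp window holds 1 TGANTCA and 1 ACAAT.

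Among the filament genes, *Nes* (chr3:87971078-87980451, plus strand), which encodes nestin of neural progenitors, had 12 peaks, the most of the 9 loci. Its promoter peak (chr3:87970278-87971643, summit 5 bp upstream of the start) had pileups of 136 and 197 in normoxia, 181 and 150 at 1% O2 and 159 and 127 at <0.1% O2. Its fold rank was 39.3 and 38.7 in normoxia, 25.4 and 24.3 at 1% O2 and 28.1 and 27.6 at <0.1% O2. The replicates lay close together and both hypoxic groups lay below both normoxic libraries. The mean of 39.0 ± 0.37 (SD, n = 2) fell by 14.1 points at 1% O2 and by 11.1 at <0.1% O2, and by 13.6 to 14.7 and 10.9 to 11.4 with any library left out. By pileup rank it fell by 12 and 13 points. Ranked within whole lists the changes were -6.77 and -5.37 points, and with the GC trend subtracted the change at <0.1% O2 was -8.65, each short of a call.

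Inside the gene, the peak in intron 2 (chr3:87974248-87974576, 3.40 kb downstream of the start), whose sequence is given above, had pileups of 54 and 62 at 21% O2 and 92 and 84 at 1% O2 and was in neither list at <0.1% O2. Relative to coverage this was 25.0 and 26.3 at 21% O2 and 31.4 and 28.1 at 1% O2. It was the only lost peak of the locus and was lost in lists of equal length as well. Its folds, 2.64 to 4.41, were among the lowest at the loci.

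Around *Nes* the peaks moved in different directions. The 2 tallest in normoxia lay 12 and 14.5 kb downstream, with pileups of 186 and 246, and of 189 and 244, and pileup ranks of 90.9 to 92.5. The pileup rank of the nearer fell by 17.4 points at 1% O2 and by 10 at <0.1% O2, both called (the second was -9.44 without 21% O2 replicate 1 and -8.92 without <0.1% O2 replicate 1), and that of the farther fell by 13 points at 1% O2. Its change of -5.61 at <0.1% O2 was not called. Their fold ranks, 1.33 to 8.28 in the 6 libraries, gave no call. By pileup rank, 4 peaks of the locus were lower and 1 higher at 1% O2. A peak 26.1 kb upstream was gained at both levels, with pileups of 74 and 89 at 1% O2 and 92 and 66 at <0.1% O2, and stayed gained in lists of equal length. A peak 10.1 kb upstream had fold ranks of 50.2 and 63.5 in normoxia, 45.2 and 47.5 at 1% O2 and 57.3 and 59.9 at <0.1% O2. It fell by 10.5 points at 1% O2, but the change was -3.82 without 21% O2 replicate 2, -17.1 without 21% O2 replicate 1 and -9.29 without 1% O2 replicate 1. Over all libraries its pileup rank changed by 7.22 at that level, so the sign depended on the measure. A peak 31.7 kb downstream had fold ranks of 21.8 and 20.6 in normoxia, 5.14 and 8.41 at 1% O2 and 6.20 and 1.86 at <0.1% O2, falls of 14.4 and 17.2 points, and its pileup rank fell by 15 and 29.5. The adjacent promoter of *Bcan*, which encodes the brain proteoglycan brevican, had fold ranks of 7.71 and 6.23 in normoxia, 16.4 and 9.94 at 1% O2 and 18.2 and 23.3 at <0.1% O2. It was called higher at <0.1% O2 (13.8 points), with a pileup rank change of 0.26. The peak of the locus with the highest mean fold away from promoters at 21% O2, 51.9 kb downstream of the start and near a *Hapln2* transcript outside the basic set, had pileups of 105 and 123 in normoxia, 222 and 199 at 1% O2 and 207 and 167 at <0.1% O2. Its pileup rank rose by 11.4 and 11.1 points and was called at both levels, but these rises were 8.44 and 8.21 without 21% O2 replicate 2. Its fold rank rose by 13.8 at <0.1% O2, which was 20.7 without 21% O2 replicate 1, 6.87 without 21% O2 replicate 2 and 8.83 without <0.1% O2 replicate 1.

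*Vim* (chr2:13573927-13582826, plus strand), which encodes the filament protein of astrocytes and mesenchymal cells, had 7 peaks. Its promoter peak (chr2:13573306-13575014) carried the highest single pileup of the 9 loci, with 290 and 448 in normoxia, 299 and 284 at 1% O2 and 352 and 288 at <0.1% O2. The pileup rank was 98.5 and 98.9, then 91.0 and 92.0, then 95 and 94.6, so both hypoxic groups lay below the normoxic one, with changes of -7.16 and -3.90 points that were not called. The fold rank of the same peak was 4.49 to 6.99 in the 6 libraries, close to the lowest possible. By fold rank a fall of 10 points was therefore not possible at this promoter peak. A neighbouring promoter peak 1.60 kb upstream likewise had fold ranks of 0.22 to 7.62 and pileup ranks of 83.3 to 93.9.

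The largest fall in pileup rank at the 9 loci, at 1% O2, was in the peak 9.90 kb downstream of the *Vim* start (chr2:13583042-13584266), just beyond the gene. Its pileups were 114 and 169 in normoxia, 90 and 73 at 1% O2 and 106 and 75 at <0.1% O2. Its pileup rank was 76.7 and 80.0 in normoxia, 41.4 and 35.9 at 1% O2 and 53.1 and 45.2 at <0.1% O2. The groups did not overlap, with the 1% O2 libraries lowest. The changes were -39.7 and -29.2 points by pileup rank and -13.1 and -12.1 by fold rank, all called lower, and the fold rank change stayed between -15.1 and -11 with any library left out. The peak 16.4 kb before the start went the other way by pileup rank. Its values were 64.3 and 60.2 in normoxia, 68.8 and 68.2 at 1% O2 and 82.7 and 81.9 at <0.1% O2, a rise of 20.1 points at <0.1% O2. By fold rank that peak changed by 6.94 points and was not called. The strongest peak by fold away from promoters, 15.2 kb upstream, had fold ranks of 32.6 and 36.6 in normoxia and 29.2 and 35.4 at 1% O2, which overlapped. At <0.1% O2 they were 32.4 and 29.5, below both normoxic values, and the change of -3.68 was not called. Its pileup rank changed by 8.49 at <0.1% O2, also not called. The promoter of *Trdmt1*, an RNA methyltransferase gene 29.5 kb upstream, fell by 17.6 points at <0.1% O2, by 9.78 without 21% O2 replicate 2, and its pileup rank changed by -0.57. A peak 19.6 kb downstream was gained at <0.1% O2 with pileups of 39 and 27, also in lists of equal length.

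*Gfap* (chr11:102887336-102900912, minus strand), the filament gene of mature astrocytes, had 9 peaks, 6 of them at promoters of other genes. Its constant promoter peak lies upstream of the main start (chr11:102898306-102898997, summit 1.45 kb upstream) and had pileups of 122 and 150 in normoxia, 157 and 128 at 1% O2 and 123 and 102 at <0.1% O2. Its fold rank was 59.4 and 48.4 in normoxia, 37.2 and 36.6 at 1% O2 and 41.7 and 43.3 at <0.1% O2. Both hypoxic groups lay below the normoxic one and the falls of 17.0 and 11.5 points were called, as were those of 12 and 16.9 in pileup rank. Without 21% O2 replicate 1 the fold rank change at <0.1% O2 was -5.95, without 1% O2 replicate 2 the pileup rank change at 1% O2 was -9.62, and ranked within whole lists the changes were -8.44 and -4.94. A second peak lies 280 bp upstream of the start, over the CpG poor sequence printed above. It was found at 1% O2 with pileups of 56 and 53 and in no list at 21% or <0.1% O2. It was gained there by the rule, but in lists of equal length it was in none.

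Among the neighbours of *Gfap*, the promoter of *Kif18b*, a kinesin gene of mitosis, had fold ranks of 81.7 and 81.7 in normoxia, 62.3 and 59.8 at 1% O2 and 61.5 and 63.1 at <0.1% O2. It fell by 20.7 and 19.4 points, while its pileup rank changed by -2.91 and -0.91. The shared promoter of *Ccdc103* and *Fam187a* was at 36.6 and 25.2, then 11.5 and 11, then 29.7 and 30.8, a fall of 19.6 points at 1% O2, where its pileup rank changed by -8.81 and was not called. At <0.1% O2 its values overlapped with normoxia. A peak 49.7 kb upstream, at the promoter of *C1ql1*, was singled out after its values were seen. Its fold ranks were 55.5 and 45.7 in normoxia, 61.4 and 66.6 at 1% O2 and 36.8 and 28.5 at <0.1% O2. The call was higher in moderate and lower in severe hypoxia, and by pileup rank as well, with changes of 11.7 and -10.9. The fold rank rise of 13.4 at 1% O2 was 8.53 and short of a call without 21% O2 replicate 2. The pileup rank rise was 7.81 without 1% O2 replicate 1, and the pileup rank change at <0.1% O2 was -9.68 without 21% O2 replicate 1 and -9.67 without <0.1% O2 replicate 2. A peak 39.8 kb upstream was gained at 1% O2 with pileups of 18 and 18, and <0.1% O2 replicate 1 had it with 18. It was in none of the lists of equal length. A peak near the start of the noncoding *Gm26668*, 32.7 kb downstream, was gained at <0.1% O2 with 42 and 32, also in lists of equal length.

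Of the receptor genes, *Pdgfra* (chr5:75152292-75198215, plus strand), the PDGF receptor of oligodendrocyte precursors, had 6 peaks. The RefSeq promoter window itself lay in no consensus peak. Its promoter peak in all 6 libraries was 3.90 kb downstream of the main start, in intron 1 and within 2000 bp of another annotated start of the gene (chr5:75155589-75156886). The same peak also lies within 2000 bp of start sites of *Gm42802* and *Gm42803*. It had pileups of 120 and 143 in normoxia, 177 and 158 at 1% O2 and 139 and 117 at <0.1% O2. Its fold rank was 28.8 and 18.6 in normoxia, 9.47 and 11.6 at 1% O2 and 8.92 and 16.1 at <0.1% O2. All hypoxic values lay below both normoxic ones, and the falls of 13.2 and 11.2 points were called. The changes were -8.08 and -6.11 without 21% O2 replicate 1 and that at <0.1% O2 was -7.67 without <0.1% O2 replicate 1. By pileup rank the changes of -3.31 and -9.61 were not called. A weaker peak 1.00 kb upstream of the main start was in 5 libraries, with pileups of 72 in 21% O2 replicate 2, 105 and 80 at 1% O2 and 68 and 57 at <0.1% O2.

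*Pdgfra* held 2 of the 3 peaks lost at <0.1% O2, both beyond the end of the gene and both printed above. The one 57.8 kb downstream of the start had pileups of 25 and 32 at 21% O2 and 25 and 30 at 1% O2. The one 71.8 kb downstream, which had the highest mean fold of the locus away from promoters at 21% O2 (10.4 and 12 in the libraries), had pileups of 32 and 40 at 21% O2 and 24 in 1% O2 replicate 1. None of these was listed at <0.1% O2, where coverage was higher than at 21% O2. In lists of equal length both were still lost at <0.1% O2, and the second was also lost at 1% O2. The peak near the pseudogene *Olfr1401-ps1*, 9.01 kb upstream, fell by 22.2 and 15 points in fold rank, the second being 7.75 without <0.1% O2 replicate 2, and changed by -7.94 and -1.60 in pileup rank.

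*Egfr* (chr11:16752203-16918158, plus strand), the EGF receptor gene that is amplified in many human glioblastomas, had 2 consensus peaks over 166 kb of gene and its flanks, and none at its promoter. The peak in intron 12 (chr11:16877835-16878128, 126 kb from the start), which lies near the start of an *Egfr* transcript outside the basic set used for promoters, was gained at <0.1% O2 with pileups of 21 and 19, and 1% O2 replicate 1 had it with 23. It was in none of the lists of equal length. The other peak belonged to the promoter shared by *Fbxo48* and *Eldr* beyond the end of the gene and had fold ranks of 89.8 to 94.4 in the 6 libraries, with no separation of the groups.

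*Cd44* (chr2:102811141-102901665, minus strand), the hyaluronan receptor that marks mesenchymal gliomas, had 5 peaks. Its promoter peak (chr2:102900877-102901795) had pileups of 138 and 204 in normoxia, 220 and 195 at 1% O2 and 179 and 131 at <0.1% O2. Its fold rank was 79.5 and 77.2 in normoxia, 71.9 and 65.2 at 1% O2 and 60.7 and 54.3 at <0.1% O2. The 3 groups did not overlap. The change of -9.85 at 1% O2 was short of a call, and the fall of 20.9 points at <0.1% O2 was called, at 17.7 to 24.1 with any library left out, 13.2 within whole lists and 20.1 with the GC trend subtracted. By pileup rank the changes were -3.67 and -10.7, the second called, but -9.60 without 21% O2 replicate 2 and -8.03 without <0.1% O2 replicate 2. Among the 7 open promoters of the loci it had the highest normoxic fold rank, 78.4 ± 1.65 (SD, n = 2).

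Within *Cd44*, the strongest peak away from the promoter was the one in intron 1 printed above (chr2:102873002-102873941, 28.3 kb downstream of the start). Its fold rank was 85.7 and 81.9 in normoxia, 69.6 and 79.6 at 1% O2 and 81.8 and 83.8 at <0.1% O2, and its pileup rank was 84.1 to 89.9 in the 6 libraries, so it did not follow the promoter at <0.1% O2. At 1% O2 the fold rank of this peak changed by -9.23, beside -9.85 at the promoter, and neither was called. Its changes at <0.1% O2 were -1.05 by fold rank and 3.45 by pileup rank, neither called, and the difference from the promoter was not tested. Another intron 1 peak, 22.9 kb downstream, had overlapping fold ranks of 33.8 to 68.8. A low peak 6.30 kb downstream was missing from 21% O2 replicate 2 and had pileups of 16 to 35 elsewhere. A peak in exon 19, in the 3′ untranslated region, was gained at <0.1% O2 with pileups of 25 and 25 and was in 1 of the lists of equal length.

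**Figure D4:**
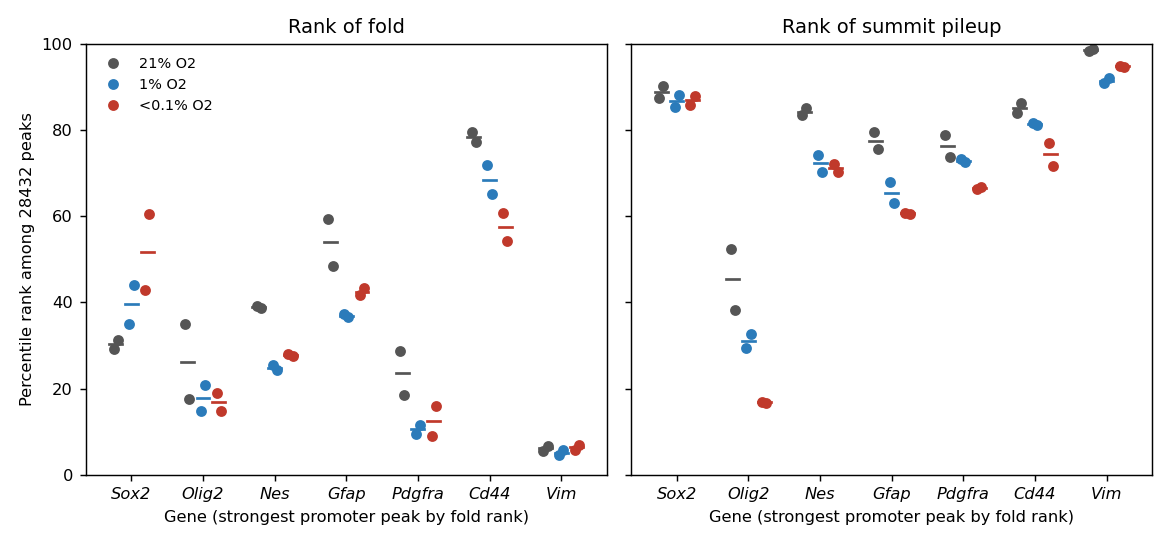
Percentile rank of the strongest promoter peak of the 7 open genes among 28432 peaks, by fold (left) and by summit pileup (right); points are libraries and bars the mean of 2. The means of *Cd44*, *Nes*, *Gfap*, *Pdgfra* and *Olig2* are lower at <0.1% O2 than at 21% O2 in both panels, *Sox2* rises by fold alone, and *Vim* is near the bottom by fold and near the top by pileup.

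Across the 7 open promoters, the normoxic fold ranks fell in the order *Cd44* (78.4 ± 1.65), *Gfap* (53.9 ± 7.80), *Nes* (39.0 ± 0.37), *Sox2* (30.3 ± 1.51), *Olig2* (26.2 ± 12.3), *Pdgfra* (23.7 ± 7.25) and *Vim* (6.10 ± 0.96; SD, n = 2 each). The replicate values of *Olig2* overlapped those of *Sox2* and those of *Pdgfra*, and the values of the other neighbours in this order did not overlap. By pileup rank *Vim* was first instead. For each of these promoters the 2 promoter peaks of other coding genes with the smallest mean absolute difference in fold rank over the 6 libraries were *Gm42791* (3.23 points) and *Mrpl14*/*Tmem63b* (3.54) for *Sox2*, *Sbds*/*Tyw1* (2.30) and *Slc2a4* (2.59) for *Olig2*, and *Lrrc14*/*Recql4* (2.52) and *Ppp2r2b* (2.52) for *Nes*. They were *Tob1* (1.17) and *Vpreb3* (2.32) for *Gfap*, *Nexn* (1.48) and *Cdr2l* (1.54) for *Pdgfra*, *Dync1li2* (1.62) and *Fignl1* (2.64) for *Cd44*, and *Hist1h2ad*/*Hist1h2bf*/*Hist1h3d* (0.71) and *Sin3a* (0.76) for *Vim*. This is a description over 6 libraries, chosen from the same ranks.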

How the data were processed

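ATACseq peak lists of 6 GL261 libraries were used, grouped by the treatment in the labels. The authors trimmed reads with Trimmomatic, aligned them to mm10 with Bowtie2 2.2.5, removed duplicates and ran MACS2 2.1.1.2 on each library separately. The deposited lists give a fold (ratio over the local background), and a -log10 p-value and a -log10 q-value per peak, with an integer score made from the latter. The read counts behind the study's own test were not used here.

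Pileup and background were recovered from fold and p-value for 100% of peaks (tolerance 0.002 in -log10 p), and the smallest background was read as coverage. The recovery and the call rule were tested on simulated data. Start sites came from GENCODE M21 basic transcripts and sequences from GRCm38.p6. The genes and lists were chosen with earlier results of these data known. The result of 1 marker list is not reported here. At each locus were named the strongest promoter peak, the strongest other peak, up to 2 further called peaks and up to 2 gained or lost ones; other peaks were named after their values were seen. Alternatives were the value ranked, ranks within whole lists, a GC correction, the overlap, a stricter q-value, equal list lengths, 5 points, a 10 kb flank, a replicate block and each library left out. The equal lists and the stricter q-value for the peak number were added after seeing the data. Tools were scipy 1.17.1, pandas 2.3.3, numpy 2.4.6, matplotlib 3.10.9, pysam 0.24.0 and samtools 1.23.1 under Python 3.11.15.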

Additional observations from a re-analysis of the deposited data

Results flagged for a closer look

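A peak at the promoter of *C1ql1*, 49.7 kb upstream of *Gfap*, went up in moderate and down in severe hypoxia. It was singled out after its values were seen. Both 1% O2 libraries lay above and both <0.1% O2 libraries below both normoxic ones in fold rank, with mean changes of 13.4 and -17.9 percentile points. Without 21% O2 replicate 2 the first was 8.53, short of the 10 points of a call. The difference between the levels was not tested.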

How the results depend on the processing

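The low number of libraries, 2 per condition, and the lower coverage at 21% O2 limit every count. With an overlap of 1 bp and with a -log10 q-value of at least 5 every count of locus peaks was within 1.5 times the one reported. By pileup rank, and with the GC trend subtracted, 2 peaks were higher at 1% O2. Within whole lists 5 were lower and 4 higher at 1% O2, and 6 lower and 6 higher at <0.1% O2. With 5 points called, 3 were higher at 1% O2 and 5 at <0.1% O2. A 10 kb flank held 19 peaks open in every condition, 0 higher at 1% O2, 6 lower and 1 higher at <0.1% O2, with 1 peak gained in moderate hypoxia, and in severe hypoxia 2 gained and 1 lost. Equal list lengths gave 2 gained and 2 lost at 1% O2. With each library left out, 8 to 15 were lower and 1 to 3 higher at 1% O2, 8 to 12 lower and 2 to 6 higher at <0.1% O2, 6 to 10 gained and 0 to 1 lost at 1% O2, 8 to 17 gained and 3 lost at <0.1% O2, and 33 to 36 open in every condition. The excess of 12.5 peaks per hypoxic library was 11.2 with the stricter q-value (exact permutation p = 0.0667). The replicate numbers did not pair the libraries (correlations of replicate differences -0.05, -0.04 and 0.03), and the replicate block gave 9 lower and 1 higher at 1% O2 and 10 lower and 3 higher at <0.1% O2. Of 102 recomputed rank changes of the 17 named ranked peaks, with all 6 libraries kept, 58 moved by less than the spread between replicates, 43 by more, and 1 called change turned, that of *Sox2* at <0.1% O2, which was -1.99 by pileup rank.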
